A study of Saccharomyces cerevisiae with 12 samples.

Results

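The proteins of the yeast mitochondrial ribosome and their closest namesakes were followed at the level of RNA and of ribosome-protected footprints in Saccharomyces cerevisiae. The set took in nuclear genes with a standard symbol made of MRPL, MRPS, MRP or RSM and a number, to which IMG1, IMG2, YMR31, NAM9 and PET123 were added. It came to 72 of the 7130 gene identifiers counted. In a table of RefSeq genes, 69 of them carried a ribosomal protein name of the universal nomenclature, with 40 in the large and 29 in the small subunit. The other 3 carried none. YMR31, listed there as KGD4, is a subunit of the alpha-ketoglutarate dehydrogenase complex, RSM22 is a methyltransferase-like protein linked to assembly of the small subunit, and MRP8 is not a ribosomal subunit in spite of its name.

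The tested cultures had spent a night in 10 µM radicicol, a drug that blocks the ATPase site of the chaperone Hsp90, and the control cultures had spent the same night without it. Dilution to OD600 0.001 and 24 h of regrowth followed for all cultures, so the comparison asks what differs after the drug has been diluted away. The 4 groups were RNA and footprints of pre-treated cultures and RNA and footprints of untreated cultures, with 3 libraries in each. The series is described as also covering heat shock, but no sample here is labelled as heat-shocked, so the comparison is taken as one of radicicol pre-treatment alone. The labels gave neither strain nor final density, and they did not say that equal replicate numbers mark 1 colony across treatments, so p-values measure the spread between these cultures.

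Mitochondrial ribosomes translate the handful of messages of the mitochondrial genome, which encode core subunits of respiratory complexes and of the ATP synthase. All but one of their proteins are made in the cytosol from nuclear genes and imported, and they join ribosomal RNAs made inside the organelle. Some descend from bacterial ribosomal proteins and others have no bacterial counterpart. In this yeast the messages of many of them are bound by the Pumilio protein Puf3, and their amounts are known to shift with carbon source.

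The libraries held between 737922 and 2481336 counts, the smallest being untreated RNA replicate 3. A count of 3 was therefore worth between 1.21 and 4.07 CPM (counts scaled to the library's total). Every feature of the mitochondrial chromosome had 0 counts in every library, so the ribosomal protein encoded there was not analysed. Small nucleolar RNAs took 0.59% of the counts of untreated RNA replicate 2 and between 1.06% and 1.30% of those of the other RNA libraries. A reporter gene of a plasmid in the annotation took a higher share in pre-treated cultures without overlap, between 1.58% and 1.70% of pre-treated and between 1.17% and 1.39% of untreated RNA counts, and between 0.915% and 0.992% of pre-treated and between 0.727% and 0.857% of untreated footprint counts. Its part in the results was not tested. All 72 genes passed the filter on low counts in every comparison, and none had a count of 0 anywhere. Their counts ran between 13 and 1828 per library, with a median of 88 in RNA libraries and 47 in footprint libraries, and such values carry counting error of their own. Values are relative to each library's total, and in bulk cultures a change in a share of the cells and a change in the RNA of each cell cannot be told apart.

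The 69 structural subunits were expressed at moderate and fairly even levels. Among large subunit proteins 25 were of the bacterial type and 15 were specific to mitochondria, and among small subunit proteins the numbers were 18 and 11. The 72 genes lay on 15 of the 16 nuclear chromosomes, most often on chromosomes IV (12 genes) and XIV (11 genes). Their counted length, which was coding length, ran between 213 bases in MRPL39 and 1887 bases in RSM22, with a median of 679.5. Levels between genes are compared below as CPM per kilobase of coding length. In untreated RNA the structural subunits had a median of 72.03 CPM per kb, against 53.1 for all genes tested, and 51 of 69 lay above the median tested gene. In untreated footprints the medians were 54.2 and 41.3 CPM per kb, and 51 of 69 again lay above.

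The level of RNA per kb was highest in MRPS12, the uS12 protein of the decoding site, at 440 ± 74.5 CPM per kb in untreated cultures (SD, n = 3). MRPS16 (bS16m) followed with 251 ± 7.78 and MRPS18 (uS11m) with 214 ± 6.36. The spread of MRPS12 was wide, but its 3 libraries all stood above the means of both. The lowest structural subunits were RSM23 (mS29) at 28.996 ± 3.28 CPM per kb, NAM9 (uS4m, first known as a nuclear suppressor of mitochondrial ochre mutations) at 37.7 ± 4.35 and PET123 (mS26) at 37.8 ± 2.88. The lowest pair differed by more than their SDs, while NAM9 and PET123 did not. Large subunit proteins had a narrower range, between 38.0 in MRPL7 and 174 in IMG1.

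In footprints the range was narrower than in RNA. MRPS12 was again highest, with 158 ± 37.7 CPM per kb, and MRPL27 (mL41) with 132 ± 18.2 and RSM18 (bS18m) with 130 ± 28.6 followed within its SD. The lowest were MRPL4 (uL29m) with 26.3 ± 2.89, MRP13 (mS44) with 27.4 ± 0.792 and MRPL7 (uL5m) with 28.0 ± 3.15, which did not differ beyond their SDs. Across the 69 subunits, log2 levels per kb had an SD of 0.61 in untreated footprints and 0.77 in untreated RNA. The same figures in pre-treated cultures were 0.62 and 0.78, whereas all genes tested had 2.03 in footprints and 1.99 in RNA of untreated cultures. Within 2-fold of the structural median lay 61 of 69 subunits in untreated footprints and 58 of 69 in untreated RNA. In pre-treated cultures 65 and 57 of 69 did.

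The 3 genes outside the ribosome structure stood at the edges of the range. MRP8 had 1144 ± 102 CPM per kb of untreated RNA and 915 ± 50.6 of untreated footprints, the highest of the 72 in both. KGD4 came next with 617 ± 21.7 in RNA and 475 ± 18.6 in footprints. RSM22 was the lowest of the 72 in both, with 22.6 ± 3.68 and 19.2 ± 2.56 CPM per kb. MRP8 alone took between 17.1% and 18.03% of the untreated footprint counts of the 72 genes, so sums over the whole set carry its weight.

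**Figure D1:**
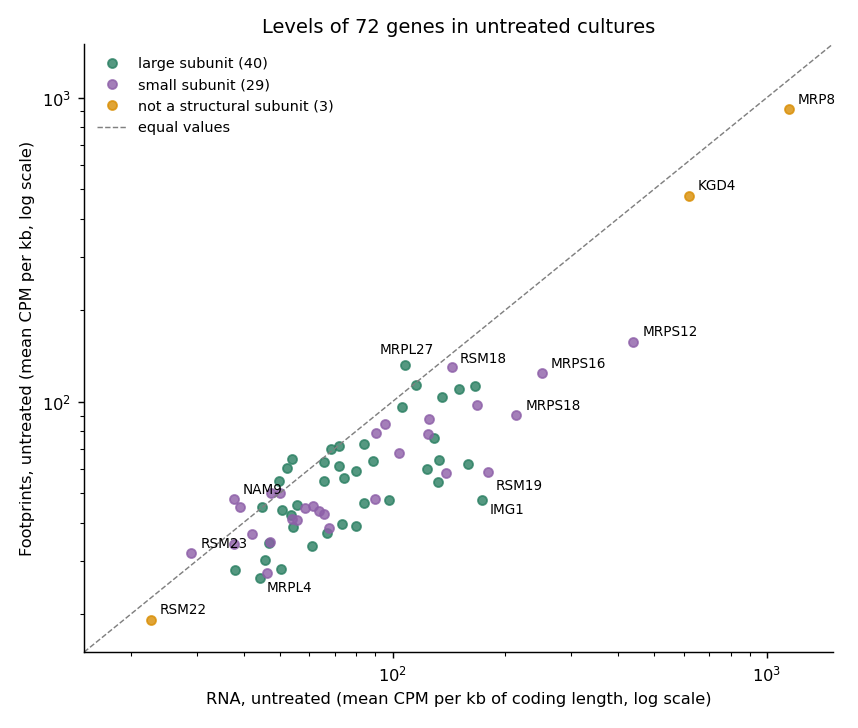
Untreated footprints (vertical, mean CPM per kb of coding length, log scale) against untreated RNA (horizontal, same unit, log scale) for the 72 genes, 1 point per gene and mean of 3 libraries each, coloured by subunit. MRP8 (1144 in RNA, 915 in footprints) and KGD4 lie apart at the top, RSM22 at the bottom, and IMG1, RSM19 and MRPS12 fall far below the dashed line of equal values. RNA and footprints were scaled separately, so distance from this line is not the fitted contrast.

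Shorter subunit genes had more RNA per kb. The rank correlation of untreated RNA per kb with coding length was -0.64 over the 69 subunits and -0.56 over 5037 nuclear open reading frames. Levels per kb and length share the length itself, so the value is a description only. Untreated RNA and footprints per kb had a rank correlation of 0.76 over the 69 subunits, against 0.91 over the 5037 frames. Both pairs of measures share the division by length. The subunits also spanned a narrower range of levels than all genes tested (SD of log2 RNA per kb 0.77 against 1.99, untreated). A narrower range can lower a rank correlation, so the values 0.76 and 0.91 are not compared as strength of coupling.

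Footprints relative to RNA differed between subunits, with a narrower spread than among all genes tested. The contrast of footprints with RNA was fitted in 1 model of all 12 libraries, on a log2 scale centred by the scaling on the average gene. In pre-treated cultures 7 of the 72 genes were higher and 22 lower in footprints than in RNA at an adjusted p under 0.05 (edgeR's quasi-likelihood test with Benjamini-Hochberg adjustment over all genes), beside 30.5% and 32.9% of all genes tested. In untreated cultures 11 were higher and 18 lower, beside 29.2% and 31.6% of all genes. The medians were -0.09 in pre-treated and -0.05 in untreated cultures, where all genes had -0.03 and -0.04. The shares past the threshold were thus no larger among the 72 genes than among all genes. The quartiles of the 69 structural subunits were -0.42 and 0.25 in untreated cultures, against -0.58 and 0.42 over all genes. In pre-treated cultures they were -0.46 and 0.12, against -0.58 and 0.44.

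IMG1 (bL19m), named for its need in keeping the mitochondrial genome intact, had the lowest contrast. Its RNA was 81.5, 66.7 and 79.9 CPM in pre-treated and 87.6, 76.2 and 102 CPM in untreated cultures. Its footprints were 25.5, 22.9 and 21.3 CPM in pre-treated and 23.2, 25.7 and 23.6 CPM in untreated cultures. All 6 footprint values lay below all 6 RNA values, but both measures were scaled separately, so the size of the gap is given by the fitted contrast. The contrast was -1.30 (SE 0.16, adjusted p = 6.05e-09 by edgeR) in pre-treated and -1.43 (SE 0.17, adjusted p = 3.19e-09) in untreated cultures.

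In untreated cultures RSM19 (uS19m) and MRPS12 (uS12m) came next, while in pre-treated cultures RSM7 did, and RSM19, MRPL51 and MRPL31 also lay below MRPS12. RSM19 had contrasts of -1.11 (SE 0.20) in pre-treated and -1.18 (SE 0.21) in untreated cultures, and MRPS12 had -0.999 (SE 0.14) and -1.06 (SE 0.15). Their genes are neighbours on the minus strand of chromosome XIV (R64-1-1), MRPS12 at 694361 to 694822 and RSM19 at 695052 to 695327, with 229 bases between them. MRPL51 (mL43) had -1.07 (SE 0.21) and -0.88 (SE 0.22), and RSM7 (uS7m, a protein of the small subunit head) had -1.24 (SE 0.18) and -0.85 (SE 0.18). For all 5 genes the adjusted p of edgeR's test lay under 0.05 in both treatments.

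At the other end stood NAM9, with the highest contrast in pre-treated cultures and below MRPL27 alone in untreated cultures. NAM9 is the homologue of uS4, which nucleates bacterial small subunit assembly in Escherichia coli. Its footprints were 71.6, 73.6 and 61.5 CPM in pre-treated and 76.0, 61.0 and 72.6 CPM in untreated cultures. Its RNA was 52.4, 45.1 and 55.9 CPM in pre-treated and 49.3, 61.9 and 54.1 CPM in untreated cultures. The contrast was 0.84 (SE 0.14, adjusted p = 1.96e-06 by edgeR) in pre-treated and 0.73 (SE 0.15, adjusted p = 5.69e-05) in untreated cultures. NAM9 thus combined nearly the lowest RNA per kb of the subunits with a middling level of footprints per kb.

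MRPL27 (mL41), MRPL17 (mL46), MRP35 (bL35m) and MRPS35 (mS45) completed the upper end in untreated cultures, with contrasts of 0.76 (SE 0.16), 0.70 (SE 0.16), 0.65 (SE 0.27) and 0.58 (SE 0.17). In pre-treated cultures the same genes had 0.32 (SE 0.15), 0.31 (SE 0.15), 0.46 (SE 0.25) and 0.36 (SE 0.16). Of these MRPS35 alone was past the threshold in both treatments. With the culture (treatment and replicate number) as a block, MRPL27 passed it in pre-treated cultures too (adjusted p = 0.0461 by edgeR). In all, 5 genes were higher in both (MRPL24, MRPS35, MRPS5, NAM9 and RSM24) and 16 were lower in both, beside 25.1% and 27.3% of all genes tested. The 16 were IMG1, MRP17, MRP51, MRP7, MRPL23, MRPL31, MRPL36, MRPL37, MRPL50, MRPL51, MRPL8, MRPS12, MRPS16, MRPS18, RSM19 and RSM7. Of the bacterial-type subunits 4 were higher and 18 lower of 43 in pre-treated cultures, and 5 and 14 in untreated cultures. Of the mitochondrion-specific subunits 2 were higher and 3 lower of 26 in pre-treated cultures, and 6 and 4 in untreated cultures. Over all genes tested, 30.5% were higher and 32.9% lower in pre-treated cultures, and 29.2% and 31.6% in untreated cultures. The difference between these classes of subunits was not tested.

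**Figure D2:**
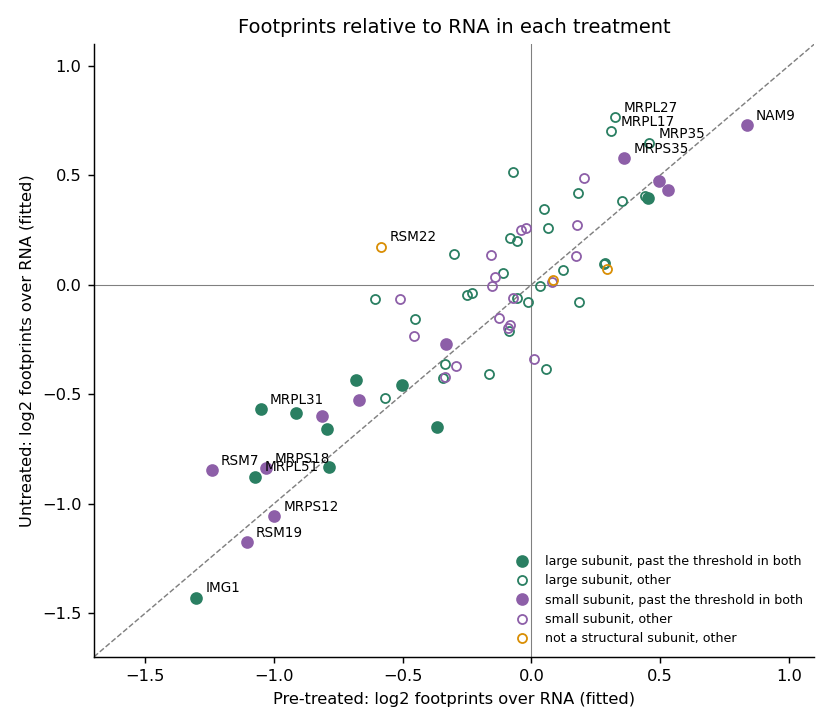
Fitted log2 contrast of footprints with RNA in pre-treated cultures (horizontal) and in untreated cultures (vertical) for the 72 genes. Filled points passed the threshold in the same direction in both treatments, and the dashed line marks equal values. IMG1 (-1.30 and -1.43) sits at the lower end and NAM9 (0.84 and 0.73) at the upper end of the line.

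Between treatments, the RNA of the mitochondrial ribosomal proteins changed little. Of the 72 genes none rose and 2 fell at an adjusted p under 0.05, MRP20 and MRP4, beside 7.17% of all genes tested that rose and 6.06% that fell. No RNA change was as large as 1.5-fold, and 15 were beyond 1.2-fold. Over all genes tested, percentiles 16 and 83 of the log2 RNA change were -0.267 and 0.274, so changes beyond 1.2-fold were common there too. The median log2 change was -0.09, against -0.00 over all 5578 genes tested. Fitted changes below 0 were found for 55 of 72 genes, beside 50.3% of all genes, and 19 lay in the lowest 25% of all genes and 6 in the highest 25%. DESeq2 called 0 of the 72 genes higher at its adjusted p. The median SE of a member's change was 0.16.

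MRP20 encodes uL23m, a protein at the exit of the tunnel through which the new chain leaves the large subunit. It lies on chromosome IV at 1277646 to 1278437 (YDR405W). Its RNA was 77.0, 73.5 and 68.6 CPM in pre-treated and 120, 95.7 and 91.1 CPM in untreated cultures, and the groups did not overlap. The log2 change was -0.50 (SE 0.13, adjusted p = 0.0103 by edgeR). Its footprints, 57.8, 54.7 and 59.0 CPM in pre-treated and 62.4, 63.0 and 54.9 CPM in untreated cultures, overlapped, and their fitted log2 change was -0.08 (SE 0.14, adjusted p = 0.810). Without untreated replicate 1 the adjusted p of the RNA change was 0.085, without pre-treated replicate 2 it was 0.0526 and without pre-treated replicate 3 it was 0.0602.

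MRP4 encodes uS2m of the small subunit (YHL004W, chromosome VIII, 99219 to 100403). Its RNA was 46.8, 52.7 and 65.3 CPM in pre-treated and 87.6, 67.0 and 71.3 CPM in untreated cultures. Its footprints were 35.1, 34.4 and 43.2 CPM in pre-treated and 47.2, 54.9 and 53.2 CPM in untreated cultures. The groups did not overlap in either measure. The log2 change was -0.47 (SE 0.15, adjusted p = 0.0320 by edgeR) in RNA and -0.46 (SE 0.16, adjusted p = 0.0576) in footprints. The RNA call was lost with DESeq2 (adjusted p = 0.120) and without untreated replicate 1 (0.220), untreated replicate 3 (0.0558), pre-treated replicate 1 (0.181) or pre-treated replicate 2 (0.135).

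Other RNA changes of the largest size did not pass the test. The lowest were those of MRPL19 (uL11m) at -0.46 (SE 0.21, adjusted p = 0.147), MRP13 (mS44) at -0.45 (SE 0.17, 0.0866) and MRPL3 (mL44, which has a fold related to RNase III) at -0.34 (SE 0.14, 0.110). MRPL19 overlaps another annotated frame on the same strand, YNL184C, and reads in the overlap were not counted, so its value is uncertain. The highest were those of MRPL32 at 0.37 (SE 0.18, adjusted p = 0.186), RSM10 at 0.32 (SE 0.13, 0.103), MRPS8 at 0.27 (SE 0.19, 0.385) and MRPS17 at 0.26 (SE 0.15, 0.281), of edgeR. MRPL32 (bL32m), whose maturation by the m-AAA protease is a known step of large subunit assembly, had 31.5, 37.4 and 37.6 CPM in pre-treated and 29.9, 23.5 and 30.4 CPM in untreated cultures. Its 3 pre-treated values were above the untreated ones, the lowest by little.

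In 9 genes every pre-treated RNA library lay below every untreated one, and in 3 genes above, beside 13.8% and 16.2% of all genes. The 9 were KGD4, MRP13, MRP20, MRP4, MRPL1, MRPL11, MRPL3, MRPL35 and MRPL40, and the 3 were MRPL32, MRPS17 and RSM10. Neither count exceeded the share over all genes.

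Footprints of most of the genes lay lower in pre-treated cultures by small amounts. Of the 72 genes none rose and 2 fell at an adjusted p under 0.05, MRPL15 and RSM22, beside 8.53% of all genes that rose and 4.85% that fell, so single calls were no more frequent than over all genes. The median log2 change was -0.21, against -0.01 over the 5090 genes tested. Fitted changes below 0 were found for 62 of 72 genes, beside 51.4% of all genes. Of the 72, 38 lay in the lowest 25% of all genes and 3 in the highest 25%. DESeq2 called 0 of the 72 genes in either direction at its adjusted p. Only MRPL31 and MRPL15 were beyond 1.5-fold, and 23 genes were beyond 1.2-fold. Percentiles 17 and 83 of the log2 footprint change over all genes were -0.264 and 0.272, so changes beyond 1.2-fold were common there too.

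The shift was present in both subunits. The median log2 footprint change was -0.22 over the 40 large subunit genes, of which 35 lay below 0, and -0.18 over the 29 small subunit genes, of which 25 did. The mitochondrion-specific subunits had a median of -0.24 with 25 of 26 below 0, and the bacterial-type subunits had -0.16 with 35 of 43. None of these classes was tested against another. With the 69 structural subunits alone, 60 lay below 0 and the median was -0.21. Leaving out untreated replicate 2 moved the median of the 72 genes to -0.15, and the other omissions of 1 library left it between -0.22 and -0.175.

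**Figure D3:**
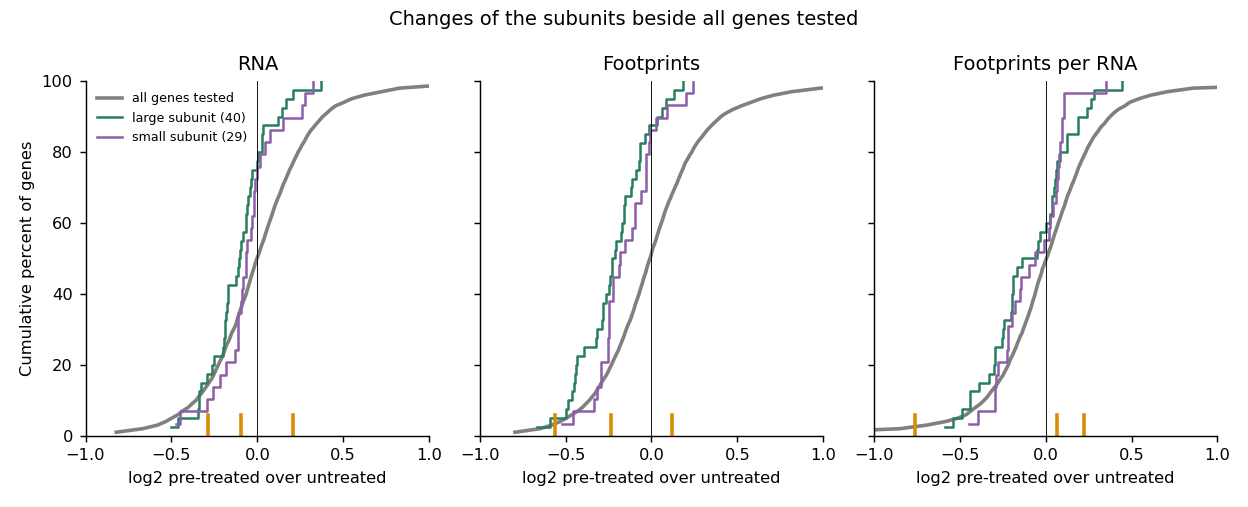
Cumulative percent of genes (vertical) against the fitted log2 change of pre-treated over untreated cultures (horizontal) in RNA, in footprints and in footprints per RNA, for the large subunit, the small subunit and all genes tested. Orange ticks mark KGD4, MRP8 and RSM22. In footprints both subunit curves lie left of the curve of all genes, with medians of -0.22 (large) and -0.18 (small) against -0.01.

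MRPL15 (mL57, the other large subunit protein with a fold related to RNase III) lies on chromosome XII at 759480 to 760241 (YLR312W-A). Its footprints were 26.8, 22.3 and 33.5 CPM in pre-treated and 40.8, 39.3 and 45.6 CPM in untreated cultures. Every pre-treated value was below every untreated one. The log2 change was -0.59 (SE 0.18, adjusted p = 0.0304 by edgeR). Its RNA, 33.5, 36.1 and 47.0 CPM in pre-treated and 35.7, 43.5 and 34.3 CPM in untreated cultures, overlapped, and its fitted log2 change was 0.00 (SE 0.17, adjusted p = 0.989). The footprint call was lost with DESeq2 (adjusted p = 0.151) and without untreated replicate 2 (0.0532), untreated replicate 3 (0.127), pre-treated replicate 1 (0.0669) or pre-treated replicate 2 (0.177).

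RSM22 (YKL155C, chromosome XI, 159456 to 161342) had footprints of 26.2, 22.9 and 23.7 CPM in pre-treated and 35.2, 31.8 and 41.4 CPM in untreated cultures, which did not overlap. The log2 change was -0.56 (SE 0.19, adjusted p = 0.0475 by edgeR). Its RNA was 49.6, 49.6 and 46.1 CPM in pre-treated and 34.6, 47.1 and 46.2 CPM in untreated cultures, with a log2 change of 0.21 (SE 0.16, adjusted p = 0.419). In the model of footprints per RNA it had the lowest change of the 72, -0.76 (SE 0.24), with an adjusted p of 0.336. The footprint call was lost with DESeq2 (adjusted p = 0.222), with the authors' table of the whole series (0.0638) and in every omission of 1 library except that of untreated replicate 2, where adjusted p lay between 0.0576 and 0.193.

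The other large footprint differences did not pass the test. MRPL31 (mL60) had the lowest fitted value, -0.67 (SE 0.27, adjusted p = 0.119), with 8.95, 14.8 and 12.2 CPM in pre-treated and 18.4, 23.7 and 14.4 CPM in untreated cultures, and these overlapped. RSM7 had -0.52 (SE 0.19, adjusted p = 0.0694) and IMG2 (mL49) had -0.50 (SE 0.23, 0.166), of edgeR. For RSM7 the adjusted p was 0.0443 with upper-quartile scaling, 0.0435 with no filter, 0.0281 without pre-treated replicate 1 and 0.0284 without untreated replicate 3. The highest values were those of MRPS17 at 0.24 (SE 0.20, adjusted p = 0.497), MRPS28 at 0.20 (SE 0.16, 0.473), MRPL23 at 0.19 (SE 0.18, 0.574) and MRPL20 at 0.13 (SE 0.22, 0.782).

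In 16 genes every pre-treated footprint library lay below every untreated one, beside 13.6% of all genes, and in 2 genes above, beside 15.9%. The 16 were IMG2, KGD4, MRP21, MRP4, MRP51, MRPL15, MRPL17, MRPL22, MRPL27, MRPL38, MRPL6, MRPS35, RSM22, RSM23, RSM25 and RSM26, and the 2 were MRP8 and MRPS28. KGD4 and MRP4 were the ones that lay lower without overlap in both RNA and footprints.

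**Figure D4:**
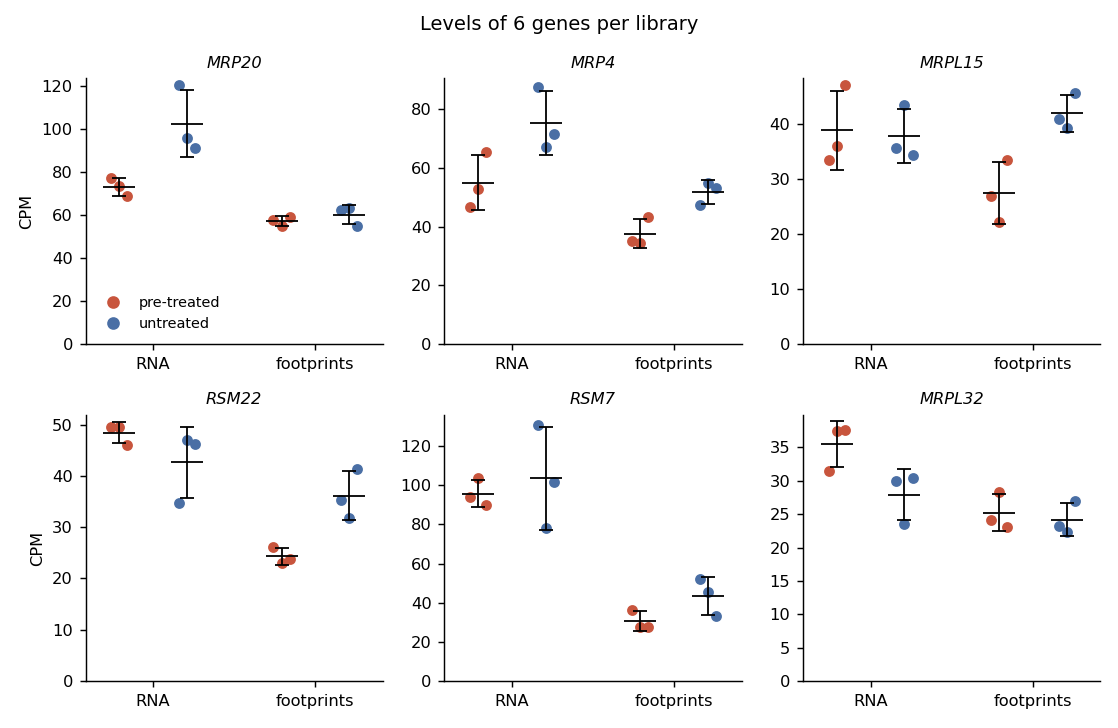
CPM per library of MRP20, MRP4, MRPL15, RSM22, RSM7 and MRPL32 in RNA and footprints, pre-treated (red) left of untreated (blue). Points are libraries, and bars are means with SD (n = 3). MRP20 separates in RNA (68.6 to 77.0 against 91.1 to 120) and not in footprints, and MRPL15 and RSM22 separate in footprints and not in RNA.

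Summing the subunits shows the same shift per library. The 69 structural subunits added up to 2254, 2317 and 2320 CPM of footprints in pre-treated and 2508, 2720 and 2557 CPM in untreated cultures. In RNA they added up to 3481, 3589 and 3540 CPM in pre-treated and 3808, 3686 and 3821 CPM in untreated cultures. The groups did not overlap in either measure, and the mean sum of pre-treated cultures differed by -11.5% in footprints and by -6.23% in RNA. No test was made on sums, since the genes were chosen with results of these data known.

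The large subunit genes summed to 1207 ± 36.5 CPM of footprints in pre-treated and 1400.0 ± 84.6 CPM in untreated cultures (SD, n = 3 each), a difference of -13.8%. The small subunit genes summed to 1090 ± 9.29 CPM of footprints in pre-treated and 1195 ± 33.7 CPM in untreated cultures, a difference of -8.83%. In RNA the differences were -8.25% for the large and -4.04% for the small subunit, where the highest pre-treated and the lowest untreated library both rounded to 1763 CPM. As plain shares of library counts, without scaling, the structural subunits took 0.218%, 0.226% and 0.233% of pre-treated and 0.257%, 0.272% and 0.262% of untreated footprint counts. They took 0.348%, 0.361% and 0.364% of pre-treated and 0.370%, 0.355% and 0.392% of untreated RNA counts. The separation in footprints was thus present with and without scaling, whereas the RNA shares overlapped without it.

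MRP8 and KGD4 had footprint changes of opposite sign and RNA changes below 0, and neither gene passed a test between treatments in the main fits. Within pre-treated cultures MRP8 was higher in footprints than in RNA, with a contrast of 0.29 (SE 0.09, adjusted p = 0.00455 by edgeR). In untreated cultures its contrast was 0.07 (SE 0.09, adjusted p = 0.509). MRP8 had 644, 671 and 649 CPM of footprints in pre-treated and 599, 639 and 573 CPM in untreated cultures, all pre-treated values being higher. Its RNA was 737, 726 and 667 CPM in pre-treated and 801, 786 and 677 CPM in untreated cultures, which overlapped. Its log2 changes were 0.12 (SE 0.08, adjusted p = 0.408 by edgeR) in footprints and -0.09 (SE 0.10, adjusted p = 0.587) in RNA, and the change in footprints per RNA was 0.22 (SE 0.13, adjusted p = 0.668).

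KGD4 had 158, 153 and 142 CPM of footprints in pre-treated and 181, 181 and 169 CPM in untreated cultures. Its RNA was 192, 194 and 180 CPM in pre-treated and 229, 238 and 222 CPM in untreated cultures. The groups did not overlap in either, and KGD4 lay lower in both by similar amounts. The log2 changes were -0.23 (SE 0.10, adjusted p = 0.131 by edgeR) in footprints and -0.29 (SE 0.10, adjusted p = 0.0560) in RNA. The RNA change passed the threshold with upper-quartile scaling (adjusted p = 0.0288) and with the size factors of DESeq2 in edgeR (0.0473).

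**Figure D5:**
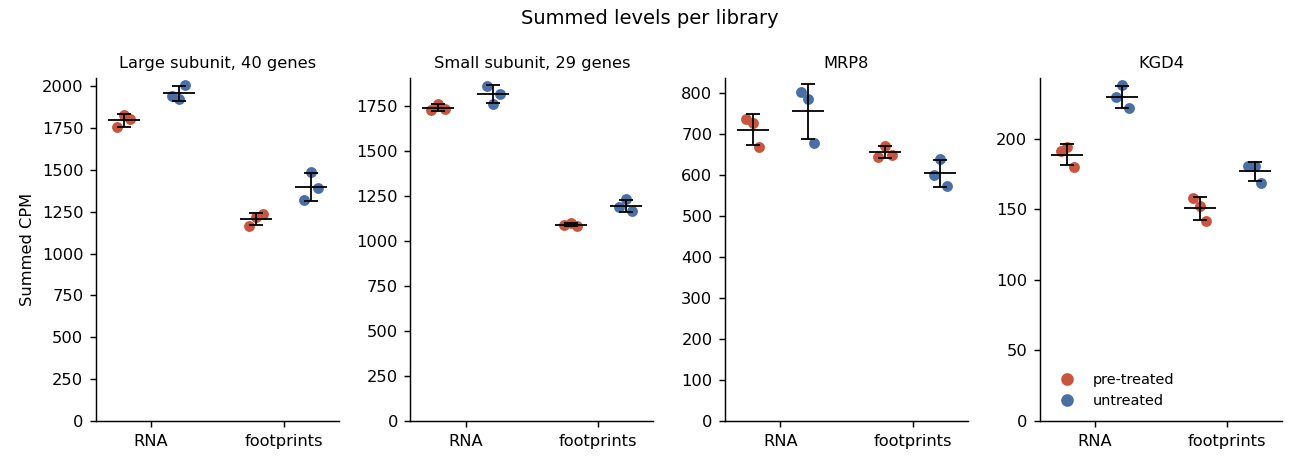
Summed CPM per library (vertical, starting at 0) of the 40 large and the 29 small subunit genes and of MRP8 and KGD4, in RNA and footprints, pre-treated (red) left of untreated (blue), with means and SD (n = 3). Large subunit footprints separate clearly (1207 against 1400.0 CPM on average), MRP8 footprints run the other way (655 against 604), and KGD4 is lower in both measures.

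A change of footprints per RNA between treatments was not detected for any of the 72 genes. None passed an adjusted p under 0.05 in either direction, beside 0.018% of all 5552 genes tested higher (1 gene) and 0% lower. The median was -0.06 against 0.00 over all genes, and 40 of 72 genes lay below 0, beside 49.4% of all genes. DESeq2 called 0 of the 72 genes at its adjusted p. In the lowest 25% of all genes lay 30 of the 72, and 8 lay in the highest 25%. Besides RSM22, MRPL15 had -0.59 (SE 0.26, adjusted p = 0.565) at the low end, and MRP20 had 0.44 (SE 0.19, adjusted p = 0.565) at the high end. The test had low power on simulated counts. Counts of 5552 genes were simulated, with 100 genes changed by each fold, and it recovered 36% of 1.5-fold and 82% of 2-fold changes. The same figures were 81% and 99% for footprints (5090 genes simulated) and 77% and 100% for RNA (5578 genes simulated). The changed genes were drawn only from those above a minimum mean count, so recovery among members with few counts may be lower. Each simulated library was drawn independently. Correlated RNA and footprint libraries of equal replicate number were thus not covered, and their part in the power was not tested.

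Gene by gene, fitted RNA and footprint changes had a low rank correlation. Both lay below 0 in 51 genes and above 0 in 6, while 11 had a positive RNA and a negative footprint change and 4 the reverse. The footprint change lay below the RNA change in 41 of 72. The rank correlation across the 72 genes was 0.13, and the fitted change exceeded its own SE in 42 of 72 genes in footprints and in 31 of 72 in RNA. Errors of this size lower such a correlation, so it cannot show whether RNA and footprints moved independently.

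Few genes of other parts of mitochondrial translation passed the test in RNA or footprints, and the lists were short. Of all genes tested, 7.17% rose and 6.06% fell in RNA, and 8.53% rose and 4.85% fell in footprints. Among 10 mitochondrial ribosomal proteins with other symbols, matched by their universal names, EHD3 fell in footprints. EHD3 is mS47, which is also a hydrolase of valine breakdown, and had 31.7, 29.7 and 36.5 CPM in pre-treated and 50.4, 46.1 and 51.5 CPM in untreated cultures. Its log2 change was -0.59 (SE 0.16, adjusted p = 0.0144 by edgeR). The median footprint change of the 10 was -0.18 with 9 below 0, and the median RNA change was -0.20 with 7 below 0. The largest values in RNA were 0.20 (SE 0.13) for MNP1 and -0.33 (SE 0.15) for RTC6, and QRI5 had the one positive footprint change, 0.49 (SE 0.24, adjusted p = 0.209).

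Of 16 mitochondrial translation factors and ribosome anchors, 1 fell in RNA and none rose, beside 6.06% and 7.17% of all genes. None passed in footprints. MDM38, an inner membrane protein that binds the ribosome, fell to 177, 165 and 133 CPM of RNA in pre-treated cultures, against 209, 191 and 230 CPM in untreated cultures, a log2 change of -0.39 (SE 0.11, adjusted p = 0.0233 by edgeR). The lowest RNA value was that of RMD9, which binds the ends of mitochondrial messages, at -0.47 (SE 0.17, adjusted p = 0.0634), and the highest was that of FMT1 at 0.60 (SE 0.53, 0.510). In footprints YLH47, a relative of MDM38, had the lowest value, -0.42 (SE 0.15, adjusted p = 0.0711), and PTH1 the highest, 0.24 (SE 0.33, 0.730). The medians of the list were -0.06 in RNA and -0.17 in footprints.

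None of 13 assembly and rRNA maturation factors passed in either measure, with medians of -0.05 in RNA and -0.07 in footprints. The lowest footprint value was that of GEP3, a GTPase of small subunit assembly, at -0.67 (SE 0.31, adjusted p = 0.171), and the highest RNA value was that of MTG2, a GTPase of large subunit assembly, at 0.50 (SE 0.24, adjusted p = 0.175). MTG2 was also highest in footprints, at 0.36 (SE 0.31, 0.530), and MRM1 was lowest in RNA, at -0.25 (SE 0.13, 0.217). None of 13 mitochondrial aminoacyl-tRNA synthetases passed either. Their RNA lay below 0 in 12 of 13 with a median of -0.20, and their footprints in 9 of 13 with a median of -0.05. MSR1, the arginyl-tRNA synthetase, had the lowest RNA value, -0.47 (SE 0.18, adjusted p = 0.0829), and the highest footprint value, 0.31 (SE 0.28, 0.557). NAM2, the leucyl-tRNA synthetase, had the highest RNA value, 0.07 (SE 0.18, adjusted p = 0.854), and the lowest footprint value, -0.40 (SE 0.23, 0.283).

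None of 17 translational activators of mitochondrial messages passed in RNA (median 0.07), nor did any of the 13 tested in footprints (median -0.20). In RNA the extremes were PET54 at 0.27 (SE 0.14, adjusted p = 0.239) and PET494 at -0.31 (SE 0.19, 0.327), both activators of COX3. In footprints they were PET494 at 0.32 (SE 0.24, 0.458) and ATP22, an activator of ATP6, at -0.80 (SE 0.33, 0.125). Relative to RNA, footprints of 10 of 17 were lower and 1 higher in pre-treated cultures (median -0.86), beside 32.9% and 30.5% of all genes, and 9 were lower and 1 higher in untreated cultures (median -0.57), beside 31.6% and 29.2%. Among 21 genes of presequence import, TOM22 rose and TIM23 fell in RNA, beside 7.17% and 6.06% of all genes. MAS1, a subunit of the processing peptidase, rose in footprints, beside 8.53% of all genes. The import channel gene TIM23 had 89.9, 92.4 and 99.6 CPM of RNA in pre-treated and 152, 146 and 137 CPM in untreated cultures, a log2 change of -0.64 (SE 0.11, adjusted p = 0.000253 by edgeR), while its footprint change was -0.21 (SE 0.16, adjusted p = 0.482). TOM22, a receptor of the outer membrane, changed by 0.42 (SE 0.14, adjusted p = 0.0400) in RNA, and MAS1 by 0.48 (SE 0.14, adjusted p = 0.0162) in footprints. The lowest footprint value was that of TOM5, -0.39 (SE 0.21, adjusted p = 0.248).

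PUF3, whose protein binds many messages of mitochondrial ribosomal proteins, did not pass the test between treatments in RNA or footprints. Its RNA was 60.5, 90.6 and 85.5 CPM in pre-treated and 110, 94.7 and 110 CPM in untreated cultures, which did not overlap, with a log2 change of -0.40 (SE 0.14, adjusted p = 0.0647 by edgeR). Its footprints were 119, 99.9 and 127 CPM in pre-treated and 129, 129 and 132 CPM in untreated cultures, with a log2 change of -0.17 (SE 0.11, adjusted p = 0.378). Whether PUF3 has any part in the values of the ribosomal proteins was not tested.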

How the data were processed

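RNA-seq of poly(A)-selected, fragmented RNA and ribosome profiling were analysed in 12 libraries, 3 per group. The deposited values were raw counts per exon feature, made with featureCounts 1.6.2 on R64-1-1 per the file headers. Reads were also handled with cutadapt 1.18, STAR 2.7.1a and SAMtools 1.9 on sacCer3, per the submitters' processing notes. Strand was used in counting and reads on overlapping features were not counted, per the file headers. Counts of 7557 features were summed to 7130 identifiers (396 had several features), and 6048 symbols were matched in a RefSeq table of R64. That table has no sequences, and none are shown. A deposited table of counts for the whole series, at 98.3% to 99.1% of the library totals, served as an alternative.

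The deposited counts were tested in edgeR 4.0.16 (R 4.3.3, limma 3.58.1) with filterByExpr (minimum count 10, minimum total 15), TMM, and the robust quasi-likelihood F test, with Benjamini-Hochberg adjustment over all genes and a threshold of 0.05. RNA and footprints were each compared over 6 libraries. Footprints per RNA, and footprints against RNA within a treatment, came from 1 model of 12 libraries. CPM of RNA and of footprints were scaled within their own 6 libraries, so contrasts of footprints with RNA are not quotients of the printed CPM. Pre-treated footprints and RNA of equal replicate number had correlated deviations (0.15 to 0.27), so their blocked contrast is given where it changed a call. SE stands for the standard error, derived from the F value, and tests were checked on simulated counts. Alternatives were upper-quartile and DESeq2 size factors, DESeq2 1.42.0, no filter, the series table, a replicate block and omission of each replicate.

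The 72 genes and the other lists were chosen with earlier results of these data known. Named genes were those past the threshold between treatments, the 5 largest changes each way in RNA and in footprints, the 3 highest and 3 lowest levels per kb (of all members and of structural subunits), the 5 highest and 5 lowest untreated contrasts of footprints with RNA, MRP8, KGD4 and RSM22, PUF3, and in each other list the called genes and the largest changes.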

Additional observations from a re-analysis of the deposited data

How the results depend on the processing

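The 4 genes called among the 72 kept their direction in all alternatives run, but each call was lost in at least 3 of the 6 omissions of 1 library. The members called lower in RNA (2) were 1 with DESeq2 and 0 to 3 when a replicate was left out. Those called lower in footprints (2) were 5 with upper-quartile factors, 0 with DESeq2, 1 with the replicate block, 1 with the series table, 1 among the 69 structural subunits (chosen after seeing the data) and 0 to 2 when a replicate was left out. The cause of these shifts was not tested. The share of all genes called lower in footprints with upper-quartile factors is not given here, so the count of 5 is not set against it. Over all genes, those lower in RNA (338) were 225 with DESeq2 and 163 to 345 in omissions, and those higher (400) were 244 to 398 in omissions. Those lower in footprints (247) were 153 with DESeq2 and 148 to 247 in omissions. For footprints per RNA, genes called higher and lower (1 and 0) were 5 and 1 with no filter and 26 and 3 with the replicate block, and 0 to 3 were higher in omissions.

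Upper-quartile factors moved the medians of all genes and of the 72 together. In RNA the medians were -0.0358 (all) and -0.1207 (members), in footprints the members had -0.2564, in untreated contrasts -0.1135 and -0.1274, and in pre-treated contrasts -0.1336 and -0.1892. Contrasts called higher among members were 7 (untreated) and 3 (pre-treated) with these factors. In omissions they were 6 to 8 and 3 to 6. Shares of all genes called under these settings are not given here, so these counts are not read as a result about the members. The footprint median of the members ran between -0.2195 and -0.1474, and its distance from that of all genes between -0.2194 and -0.1402. For footprints per RNA the same ranges were -0.168 to -0.0471 and -0.1793 to -0.0521, and for pre-treated contrasts -0.1403 to -0.0651 and -0.102 to -0.0312. Members with a footprint change below 0 numbered 58 to 61 in omissions, against 62.

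The RNA change of MRPL15, near 0, was -0.0037 with the size factors of DESeq2, -0.0219 with the replicate block, -0.0275 with upper-quartile factors, and -0.148 to 0.1329 in omissions. The change of MRP4 in footprints per RNA, also near 0, was -0.0028 with upper-quartile factors and ran between -0.1885 and 0.1871 in omissions. Across treatments, deviations of equally numbered libraries correlated between -0.17 and 0.09, so these numbers were not taken as pairs. Untreated footprints and RNA of equal number correlated between 0.03 and 0.12, not all past the limit set for pairs, yet each of the 6 libraries correlated best with its own number, a hint from the data that the labels do not state. In the model of footprints per RNA the block called 0 of the 72 genes. It ended the footprint call of RSM22 (adjusted p = 0.0556), added that of MRPL27 in pre-treated contrasts and changed no other call of a named member. Counts of 13 to 1828 limit single genes, and a change of 1.5-fold could be missed.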

Other observations

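The ribosomal proteins of the cytosol build the ribosomes whose footprints were sequenced. Of 137 genes, 7 rose and 1 fell in footprints, beside 8.53% and 4.85% of all genes tested, with a median log2 change of 0.03 and 57 below 0. In RNA 2 rose and 10 fell, beside 7.17% and 6.06%, with a median of -0.08 and 90 below 0. The difference between both sets of ribosomal proteins was not tested. RPS22A rose to 318 ± 14.3 CPM of footprints in pre-treated cultures, against 220 ± 36.2 CPM in untreated cultures (SD, n = 3 each), a log2 change of 0.53 (SE 0.10, adjusted p = 0.000695 by edgeR). RPL22B fell in RNA to 42.4 ± 3.18 CPM, against 80.6 ± 15.4 CPM in untreated cultures, which is -0.88 in log2 (SE 0.15, adjusted p = 0.000116). In RNA RPL9A rose by 0.40 (SE 0.11, adjusted p = 0.0126). These genes, like many of the 137, have near-identical paralogs or close copies. Their counts are uncertain, and so are the numbers of genes called in this list, including those relative to RNA. Relative to RNA, 61 of the 137 genes were lower and 14 higher in footprints in pre-treated cultures, beside 32.9% and 30.5% of all genes, and 78 and 11 in untreated cultures, beside 31.6% and 29.2%.

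Of 9 genes of mitochondrial DNA upkeep and transcription, none passed the test in RNA (median 0.06) or footprints (median 0.06). HMI1, a mitochondrial helicase, had the highest footprint value, with 6.20, 10.1 and 9.13 CPM in pre-treated and 4.80, 3.39 and 6.76 CPM in untreated cultures, which overlapped (log2 change 0.80, SE 0.39, adjusted p = 0.200 by edgeR). MGM101, needed for repair of mitochondrial DNA, had the lowest, with 70.9, 64.1 and 63.9 CPM in pre-treated and 78.4, 95.5 and 72.6 CPM in untreated cultures, which did not overlap, and a log2 change of -0.32 (SE 0.14, adjusted p = 0.131). In RNA the extremes were ILM1 at 0.32 (SE 0.16, adjusted p = 0.213) and MTF1 at -0.14 (SE 0.19, 0.683). Of 7 regulators tied to mitochondrial biogenesis none passed in either measure. HAP3 had the highest RNA value, 0.24 (SE 0.19, adjusted p = 0.446), and HAP5 the highest footprint value, -0.02 (SE 0.23, adjusted p = 0.974). All 7 footprint changes lay below 0, with a median of -0.10.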
